A study of Mus musculus with 2 samples.

Results

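The secreted Wnt antagonists of the mouse femur were described from single-cell RNA sequencing. They were chosen by symbol alone: *Sost*, *Dkk1*, *Dkk3*, *Sfrp1*, *Sfrp2*, *Sfrp4*, *Sfrp5*, *Frzb*, *Wif1* and *Notum*. These are 10 of the 32285 genes in both count matrices, and all 10 had UMIs in both libraries. Cells came from the femurs of 7-week-old male C57BL/6J mice, 6 untreated and 6 given intravenous calcitriol, the active form of vitamin D. The treated mice received 2.5 µg/kg in 3 daily injections and were sampled 24 h after the last one. The femurs of the 6 mice of a group were pooled into 1 library, after the epiphyses had been cut off, the marrow spun out and CD45-positive cells depleted. Each group is therefore 1 library, no difference between the groups has a replicate check, and no p-value is given.

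Wnt proteins are secreted, lipid-modified ligands that bind a Frizzled receptor and the co-receptors Lrp5 or Lrp6, after which beta-catenin accumulates and switches on target genes. In bone this pathway favours osteoblast formation and bone mass. Its secreted antagonists act outside the cell at different points. Sclerostin, the product of *Sost*, and Dkk1 occupy the co-receptors. The secreted Frizzled-related proteins and Wif1 bind the ligands themselves. Notum is an enzyme that removes the lipid a Wnt protein needs. Sclerostin is known as a product of osteocytes, the cells embedded in bone matrix.

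The untreated library held 6076 barcodes and 70266983 UMIs, and 4395 cells were kept. The calcitriol library held 4562 barcodes and 60392557 UMIs, and 3693 cells were kept. The libraries shared 8 barcode sequences, of which 2 were among kept cells. Haemoglobin genes took 30.7% of the UMIs of kept cells in the untreated library and 6.08% in the calcitriol library, and the erythroid-like group numbered 2307 and 433 cells. Cell groups are clusters named from marker genes and, where the same name fell to several clusters, from their leading gene, and 10 skeletal groups had at least 50 cells in each library. They are osteocyte-like (100 untreated and 219 calcitriol cells), *Bglap* osteoblast-like (81 and 96), *Postn* osteoblast-like (264 and 228), *Matn3* chondrocyte-like (138 and 232), *Chil1* chondrocyte-like (88 and 225), mesenchymal-like (439 and 670), *Kera*, *Chodl* and *Igfbp2* tendon-like, and an unnamed group led by *Cytl1* (214 and 596). The *Cytl1* group carried cartilage markers (*Col2a1*, *Sox9*, *Comp*) and synovial lining markers (*Prg4*, *Htra4*, *Hbegf*) in equal number and was given no cell type name. The osteocyte-like group had *Dmp1*, *Mepe* and *Phex* among its leading genes, but it also carried cartilage and osteoblast markers, and it is divided further below. Erythroid-like and endothelial-like cells, which are not known as main sources of these genes, serve as a guide to the level of free RNA. A UMI of at least 1 antagonist was found in 1.78% and 3.93% of erythroid-like cells and in 7.87% and 8.14% of endothelial-like cells, against 94.0% and 92.7% of osteocyte-like cells (untreated first). The median cell held 10427 and 9869 UMIs in the erythroid-like, 6959 and 6611 in the endothelial-like and 12503 and 11442 in the osteocyte-like group.

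Levels are CPM, a gene's UMIs per 1000000 UMIs of a cell group, with exact 95% Poisson intervals, and shares are of cells with a UMI, with exact Clopper-Pearson intervals. Ratios are log2 of calcitriol over untreated CPM, with exact conditional binomial intervals. All of these intervals cover counting error only. Gene positions are those of the GENCODE annotation of GRCm38, in which all 10 are protein-coding genes with the identifiers of the files. Of the 100 pairs of an antagonist and a skeletal group, 49 had at least 50 UMIs over both libraries. A ratio past 2-fold was found in 17 of them, 7 higher and 10 lower in the calcitriol library, and the interval of 8 ratios held 0. Among all genes with at least 50 UMIs the share past 2-fold ran from 5.1% (*Bglap* osteoblast-like) to 10.4% (*Kera* tendon-like). All 17 antagonist ratios were still past 2-fold the same way when the cell with the most UMIs was left out of each library. With haemoglobin and mitochondrial genes left out of the totals, all 54 antagonist ratios with at least 50 UMIs in any cell group stayed within these intervals. In the 10 skeletal groups the median ratio of all genes was within 0.1 of 0 on the log2 scale, apart from *Bglap* osteoblast-like and *Postn* osteoblast-like (both -0.11), *Kera* tendon-like and *Matn3* chondrocyte-like cells (both -0.13).

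As a check of the treatment, the level of *Vdr*, the vitamin D receptor, was 27.6 CPM in untreated and 56.8 CPM in calcitriol osteocyte-like cells, 64.2 and 164 CPM in *Bglap* osteoblast-like cells, and 11.6 and 31.3 CPM in *Postn* osteoblast-like cells. It was at 11.7 and 11.2 CPM in *Matn3* chondrocyte-like cells, 5.04 and 4.75 CPM in *Chil1* chondrocyte-like cells and 2.94 and 1.15 CPM in the *Cytl1* group, with overlapping intervals in each. Mesenchymal-like cells had no *Vdr* UMI in the untreated library and 25 UMIs in 18 calcitriol cells (2.80 CPM). *Chodl* tendon-like cells had none and 13 UMIs, and *Kera* tendon-like cells 3 UMIs and none. *Igfbp2* tendon-like cells were at 3.12 and 3.84 CPM. *Cyp24a1*, the vitamin D-degrading enzyme and a classical target of the receptor, had no UMI in the untreated skeletal groups and 19 UMIs in 8 calcitriol osteocyte-like cells.

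**Figure D1:**
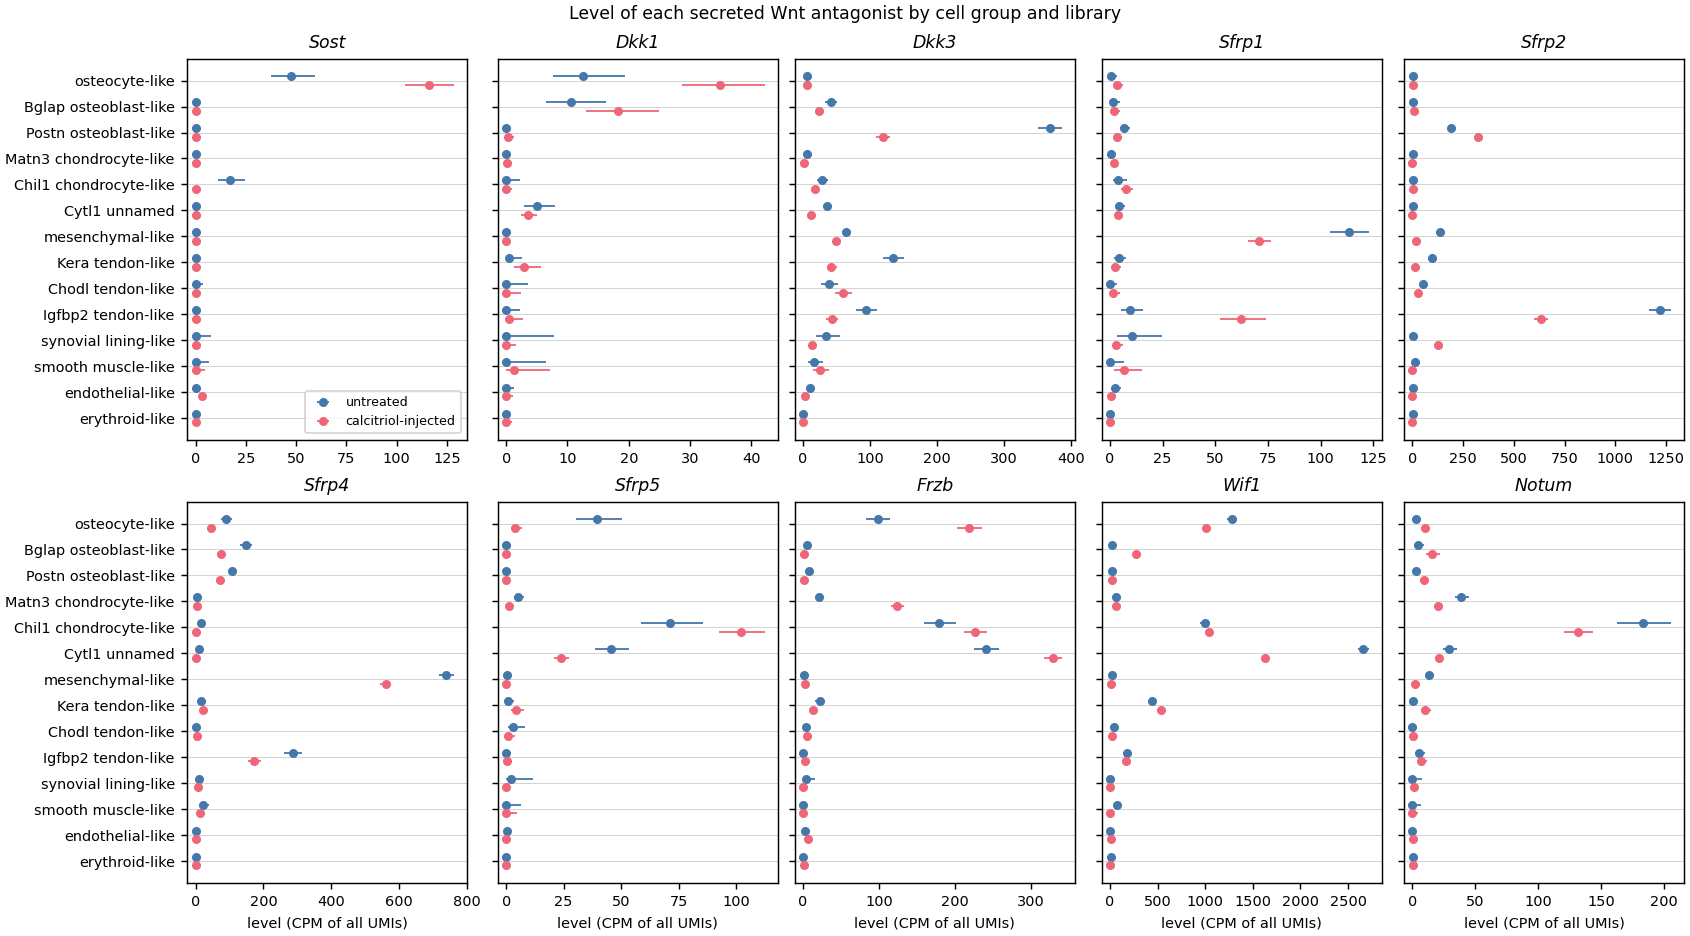
Level of each of the 10 antagonists (x axis, CPM of all UMIs, scale differs by panel) in 14 cell groups (rows) of the untreated (blue) and calcitriol (red) libraries, each 1 library; bars are exact 95% Poisson intervals. *Sost* was at 47.6 and 116 CPM in osteocyte-like cells and was otherwise found in 4 cells, 1 of them an untreated *Chil1* chondrocyte-like cell with 27 UMIs, whereas *Wif1* reached 2660 and 1630 CPM in the *Cytl1* group.

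The sequences just before the annotated starts of 5 antagonists are shown, since *Sost*, *Dkk1*, *Wif1*, *Sfrp5* and *Frzb* had ratios past 2-fold in osteocyte-like or *Bglap* osteoblast-like cells. *Sfrp4* had one too, without an entry. RefSeq promoter entries (GRCm38.p6) were given for 6 of the 10 genes, and each stretch is cut so that it ends before the outermost annotated start. Capitals mark, on either strand, the hexamer AGGTCA, its form GGGTCA with another first letter, its form AGTTCA with another inner letter, or the form GGTTCA with both of these changes, which are half-sites of the kind the vitamin D receptor binds, and 38.6% of 32851 such windows of 250 bases held at least 1. Of the 5 stretches, 4 held 1 match and that of *Frzb*, 21 bases long, held none. Those of *Dkk1* (81 bases) and *Wif1* (206 bases) were also shorter than these windows. The 250-base stretch of *Sfrp2*, the remaining entry, is not shown and held no match. The match began 217 bases before the end of the stretch in *Sost*, 71 in *Dkk1*, 131 in *Wif1* and 87 in *Sfrp5*. A match is a description of letters and no evidence of binding.
Sost, chr11:101967016-101967265, minus strand: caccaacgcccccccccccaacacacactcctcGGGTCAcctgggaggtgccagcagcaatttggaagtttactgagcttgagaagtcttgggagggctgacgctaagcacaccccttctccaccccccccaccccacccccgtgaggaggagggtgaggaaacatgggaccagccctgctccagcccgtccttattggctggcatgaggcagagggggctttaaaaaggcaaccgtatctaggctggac
Dkk1, chr19:30549666-30549746, minus strand: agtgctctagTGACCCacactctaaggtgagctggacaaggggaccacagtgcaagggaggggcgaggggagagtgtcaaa
Wif1, chr10:121033754-121033959, plus strand: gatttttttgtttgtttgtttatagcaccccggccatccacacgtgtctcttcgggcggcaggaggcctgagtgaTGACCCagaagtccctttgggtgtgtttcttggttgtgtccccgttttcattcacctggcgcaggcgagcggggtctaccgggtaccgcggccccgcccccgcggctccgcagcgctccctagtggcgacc
Sfrp5, chr19:42202253-42202502, minus strand: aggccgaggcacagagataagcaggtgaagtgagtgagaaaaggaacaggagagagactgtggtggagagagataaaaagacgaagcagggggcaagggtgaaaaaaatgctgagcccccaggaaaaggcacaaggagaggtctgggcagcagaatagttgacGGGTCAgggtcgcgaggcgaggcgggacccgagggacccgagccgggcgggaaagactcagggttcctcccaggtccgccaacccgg
Frzb, chr2:80447626-80447646, minus strand: tgcgttgagaccgtttctccc

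*Sost* (ENSMUSG00000001494, chromosome 11, 101962458 to 101967015, minus strand, 2 exons) was mainly a transcript of osteocyte-like cells and was higher in the calcitriol library. It had 103 UMIs in 12 barcodes of the untreated and 368 UMIs in 39 barcodes of the calcitriol library, and osteocyte-like cells held 73.8% and 96.5% of them. In that group its level was 47.6 CPM (37.5 to 59.6) in untreated and 116 CPM (104 to 129) in calcitriol cells, a log2 ratio of 1.28 (0.92 to 1.66). The share of cells with a UMI was 11.0% (5.62 to 18.8) and 16.4% (11.8 to 22.0), and these intervals overlap. With each cell thinned to 2000 UMIs the shares were 7.07% and 8.96%. The ratio was 0.44 as a mean of the cells' own CPM and 0.53 after thinning. A single cell accounted for 27.6% of the UMIs in the untreated library and for 17.7% in the calcitriol library, and without these cells the ratio was 1.46.

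Outside this group, *Sost* was found in 1 untreated *Chil1* chondrocyte-like cell with 27 UMIs and in 3 calcitriol cells with 10, 2 and 1 UMIs. The first of these also held 65 UMIs of *Dmp1* and *Mepe*, and none of the 4 was scored as a doublet. No *Sost* UMI was found in either osteoblast-like group or in the *Cytl1* group of either library. In the 81 untreated and 96 calcitriol *Bglap* osteoblast-like cells a count of 0 allows up to 1.58 and 1.37 CPM (3 counts).

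The osteocyte-like group fell into a pair of finer clusters, and nearly all *Sost* UMIs lay in one of them. One (42 untreated and 94 calcitriol cells) was led by *Mepe*, *Fgf23*, *Sost* and *Epcam*. The other (58 and 125 cells) was led by *Omd*, *Ecrg4* and *Comp*. In the *Omd*-led cells *Comp*, a cartilage matrix gene, had a UMI in 98.3% and 96.0% of cells, *Dmp1* in 43.1% and 15.2%, so these cells go against the osteocyte name. *Sost* stood at 97.5 and 243 CPM in the *Mepe*-led cluster, a log2 ratio of 1.32 (0.96 to 1.70), with a UMI in 26.2% and 36.2% of its cells. In the *Omd*-led cluster it had 0 and 4 UMIs. The clusters were drawn without the antagonists among the genes used, although their leading genes are a description of the same cells.

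The same osteocyte-like cells were also divided by their markers alone. Among those with UMIs of at least 2 of *Dmp1*, *Mepe* and *Phex* (34 untreated and 79 calcitriol cells), *Sost* had 64 and 345 UMIs, or 110 and 305 CPM, a log2 ratio of 1.47 (1.08 to 1.88). It was found in 26.5% and 39.2% of these cells. Osteocyte-like cells with 1 of the 3 markers had 12 and 9 *Sost* UMIs, or 23.3 and 15.0 CPM (-0.63, -2.06 to 0.74), and those with none had 0 and 1. Most *Sost* UMIs thus lay in the cells with at least 2 markers, and in those with 1 marker the ratio was within counting error. The osteocyte marker list, 9 genes, summed to 3113 CPM in untreated and 6356 CPM in calcitriol osteocyte-like cells, and the chondrocyte list to 28989 and 12619 CPM. The cells with at least 2 markers also differed between the libraries. In them *Dmp1* was at 3489 and 9048 CPM, *Col2a1* at 7799 and 1336 CPM and *Sox9* at 809 and 377 CPM. The part of all these differences in the *Sost* ratios was not tested.

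*Dkk1* (ENSMUSG00000024868, chromosome 19, 30545863 to 30549665, minus strand, 4 exons), the other blocker of the co-receptors, was sparse, with 60 and 194 UMIs in all. Its highest levels were in osteocyte-like and *Bglap* osteoblast-like cells. In osteocyte-like cells it had 20 and 107 UMIs, 12.5 CPM (7.65 to 19.3) and 34.9 CPM (28.6 to 42.2), a log2 ratio of 1.48 (0.78 to 2.25). The share of cells with a UMI was 11.0% and 15.5%, and 3.03% and 4.25% after thinning. In *Bglap* osteoblast-like cells it was at 10.5 and 18.3 CPM. That ratio of 0.79 (-0.01 to 1.65) was within counting error, and 1 cell held 75% of the 20 untreated UMIs. The levels of these groups overlapped within the untreated library and were apart in the calcitriol library. No *Dkk1* UMI was found in endothelial-like cells, and 1 in erythroid-like cells.

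Of the 11 untreated osteocyte-like cells with *Sost* 1 also had *Dkk1*, and of the 36 calcitriol cells 7 had it. These are 9.09% and 19.4% of the *Sost* cells, beside 11.0% and 15.5% of all osteocyte-like cells, so *Dkk1* was found in *Sost* cells at about its share in the whole group. The *Dkk1* level was 18.4 and 46.2 CPM in the *Omd*-led cluster, a log2 ratio of 1.33 (0.52 to 2.24), and 6.41 and 22.2 CPM in the *Mepe*-led cluster (1.79, 0.42 to 3.51). The ratio thus had the same direction in both, while *Sost* was nearly absent from the first.

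*Dkk3* (ENSMUSG00000030772, chromosome 7, 112116017 to 112159057, minus strand), a Dkk relative that is not known to bind the same co-receptors, was highest in *Postn* osteoblast-like cells, and was lower there in the calcitriol library. It had 1721 UMIs in 230 of 264 untreated cells and 513 UMIs in 145 of 228 calcitriol cells. The level was 368 CPM (351 to 386) and 119 CPM (109 to 130), a log2 ratio of -1.63 (-1.78 to -1.49). The share of cells was 87.1% (82.5 to 90.9) and 63.6% (57.0 to 69.8), or 44.5% and 21.6% after thinning, against 5.24% and 2.93% of endothelial-like cells. No single cell held more than 3.70% of the UMIs of its library, and every alternative kept the ratio past 2-fold.

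The same direction was found for *Dkk3* in several other groups. It was at 134 and 42.4 CPM in *Kera* tendon-like cells (-1.66, -1.98 to -1.35), at 94.2 and 42.7 CPM in *Igfbp2* tendon-like cells (-1.14, -1.54 to -0.75) and at 35.9 and 12.4 CPM in the *Cytl1* group (-1.54, -1.91 to -1.16). Smaller ratios were measured in mesenchymal-like cells (64.1 and 49.4 CPM, -0.38) and *Chil1* chondrocyte-like cells (28.4 and 17.2 CPM, -0.72). *Chodl* tendon-like cells went the other way, with 38.2 and 59.1 CPM (0.63, 0.08 to 1.21), although that ratio was -0.18 with 20 principal components. In the *Bglap* osteoblast-like group it was at 41.1 and 23.3 CPM (-0.82), a ratio of 0.37 after thinning. In the calcitriol library the *Postn* osteoblast-like group was still the highest, and the next groups, *Chodl* tendon-like (47.5 to 72.8 CPM), mesenchymal-like (44.9 to 54.2), *Igfbp2* (34.3 to 52.5) and *Kera* tendon-like (35.1 to 50.8), had overlapping intervals.

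*Sfrp1* (ENSMUSG00000031548, chromosome 8, 23411502 to 23449632, plus strand), a Wnt-binding Frizzled-related protein, was mainly a transcript of mesenchymal-like cells. These held 83.8% of its UMIs in the untreated and 70.2% in the calcitriol library. The level was 113 CPM (105 to 123) and 70.8 CPM (65.4 to 76.5), a log2 ratio of -0.68 (-0.84 to -0.52), while the share of cells was 28.9% and 29.9%. The only ratio past 2-fold was in *Igfbp2* tendon-like cells, at 9.36 and 62.3 CPM (2.74, 1.96 to 3.61). There 1 calcitriol cell held 62.3% of the UMIs, and with doublets left out the ratio was 1.34.

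*Sfrp2* (ENSMUSG00000027996, chromosome 3, 83766321 to 83774316, plus strand) was highest in *Igfbp2* tendon-like cells, at 1219 CPM (1165 to 1274) and 633 CPM (599 to 668). That log2 ratio was -0.95 (-1.05 to -0.84), and the share of cells was 56.2% and 49.6%. In mesenchymal-like cells it had 737 and 152 UMIs, 137 and 17.1 CPM, the largest of its differences in the 10 skeletal groups. The ratio was -3.00 (-3.27 to -2.75), and -2.66 without the top cell of each library, which held 29.9% of the untreated UMIs. The share of mesenchymal-like cells with a UMI was 13% (9.98 to 16.5) and 7.01% (5.20 to 9.22), or 5.73% and 2.57% after thinning. It was found in 8 of 2307 and in 0 of 433 erythroid-like cells, which allows a share of up to 0.693%.

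*Sfrp2* was lower also in *Kera* tendon-like cells (95.1 and 13.3 CPM, -2.84, from 10 and 11 cells with a UMI) and in *Chodl* tendon-like cells (52.5 and 25.9 CPM, -1.02, from 7 and 7 cells). The opposite direction was measured in *Postn* osteoblast-like cells, with 191 and 321 CPM in 20.5% and 33.8% of cells. That ratio of 0.75 was -0.02 when the libraries were not integrated. Synovial lining-like cells, with 25 and 95 cells, had 1 and 295 UMIs, of which the latter lay in 5 cells. *Gm26771* overlaps *Sfrp2* on the opposite strand, and how the counting treated strand is not given in the sources used here.

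*Sfrp4* (ENSMUSG00000021319, chromosome 13, 19623104 to 19632994, plus strand) was widespread in mesenchymal and osteoblast-lineage cells. Mesenchymal-like cells were highest, at 739 CPM (716 to 762) and 560 CPM (545 to 576), with a UMI in 36.9% and 39.7% of cells. The other levels were 288 and 173 CPM in *Igfbp2* tendon-like, 148 and 74.4 CPM in *Bglap* osteoblast-like, 106 and 71.9 CPM in *Postn* osteoblast-like and 90.2 and 44.1 CPM in osteocyte-like cells. All 5 were lower in the calcitriol library, with log2 ratios from -0.40 in mesenchymal-like to -1.03 (-1.38 to -0.68) in osteocyte-like cells. Only the last was past 2-fold. The *Bglap* osteoblast-like ratio had an interval of -1.28 to -0.71 and was just short of 2-fold lower, and its share of cells was 60.5% and 40.6%. In the untreated library the intervals of the *Postn* osteoblast-like and osteocyte-like groups overlapped, and the others were apart.

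In both finer clusters of osteocyte-like cells *Sfrp4* was the reverse of *Dkk1* in its direction. It stood at 135 and 75.6 CPM in the *Mepe*-led cluster (-0.83, -1.23 to -0.43) and at 47.7 and 16 CPM in the *Omd*-led cluster (-1.58, -2.35 to -0.82). By markers the direction was not uniform. The ratio was -2.83 (-3.92 to -1.83) in cells with none of *Dmp1*, *Mepe* and *Phex*. It was -1.12 (-1.65 to -0.595) in those with at least 2. In cells with 1 marker *Sfrp4* had 45 and 63 UMIs, at 87.2 and 105 CPM. That ratio of 0.27 (-0.31 to 0.85) was within counting error. In endothelial-like cells it had a UMI in 0.375% and 1.95% of cells.

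*Sfrp5* (ENSMUSG00000018822, chromosome 19, 42197971 to 42202252, minus strand) was highest in Schwann-like cells, glia of peripheral nerve, at 397 and 575 CPM in 16 and 20 cells. Among the 10 skeletal groups the *Chil1* chondrocyte-like cells were highest, at 71.2 CPM (58.7 to 85.7) and 102 CPM (92.3 to 112), a log2 ratio of 0.52 (0.21 to 0.83). The *Cytl1* group was at 45.6 and 23.8 CPM (-0.94, -1.24 to -0.63). Osteocyte-like cells had 63 UMIs in 13 untreated and 12 UMIs in 6 calcitriol cells, at 39.4 CPM (30.3 to 50.5) and 3.92 CPM (2.02 to 6.84). That ratio was -3.33 (-4.36 to -2.43), and over the alternatives it ran from -4.02 to -1.67. Of the untreated UMIs 56 lay in the *Omd*-led cluster, where the level was 68.5 and 7.39 CPM (-3.21, -4.25 to -2.30). The *Mepe*-led cluster had 7 and 0 *Sfrp5* UMIs, so most UMIs of *Sost* and of *Sfrp5* lay in different osteocyte-like clusters.

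*Frzb* (ENSMUSG00000027004, chromosome 2, 80411970 to 80447625, minus strand), also named secreted Frizzled-related protein 3 and known for its expression in cartilage, was highest in the *Cytl1* group. Its level there was 241 CPM (225 to 258) and 329 CPM (317 to 340), in 42.5% and 46.1% of cells. *Chil1* chondrocyte-like cells had 179 and 226 CPM, and osteocyte-like cells 98.3 and 219 CPM. The last ratio was 1.16 (0.90 to 1.42) and 0.67 with the stricter filter on clusters. In the calcitriol library the intervals of these last groups overlapped (212 to 242 and 203 to 236 CPM). In osteocyte-like cells with at least 2 of *Dmp1*, *Mepe* and *Phex*, *Frzb* was at 91.2 and 123 CPM, in 32.4% and 12.7% of cells. That ratio of 0.43 (-0.04 to 0.92) was within counting error. It was 1.51 with 1 marker and 1.32 with none. When cells with at least 2 of the 3 markers were taken over all groups, the *Frzb* ratio was 1.74. By finer cluster the ratio was 1.12 in *Omd*-led and 1.19 in *Mepe*-led cells.

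The *Frzb* ratio was largest in *Matn3* chondrocyte-like cells. It had 101 UMIs in 30 of 138 untreated cells and 927 UMIs in 95 of 232 calcitriol cells. The level was 21.2 CPM (17.2 to 25.7) and 124 CPM (116 to 132), a log2 ratio of 2.55 (2.25 to 2.86). The share of cells was 21.7% (15.2 to 29.6) and 40.9% (34.6 to 47.6), 1.45% and 10.9% after thinning, and 1.5% and 0.651% in endothelial-like cells. The untreated cell with the most UMIs held 31.7% of them, and without the top cell of each library the ratio was 3.01.

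These cells also fell into a pair of finer clusters, and most *Frzb* lay in one. *Col10a1*-led cells (55 and 88), named for a collagen of hypertrophic chondrocytes, held 93 and 835 *Frzb* UMIs, at 39.3 and 225 CPM (2.52, 2.21 to 2.84) in 43.6% and 83.0% of cells. *Apoe*-led cells (83 and 144) held 8 and 92, at 3.33 and 24.5 CPM. The ratio had the same direction in both. *Col10a1* itself was at 12169 and 9494 CPM in the former, and *Col2a1*, the main cartilage collagen, at 56904 and 38926 CPM.

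**Figure D2:**
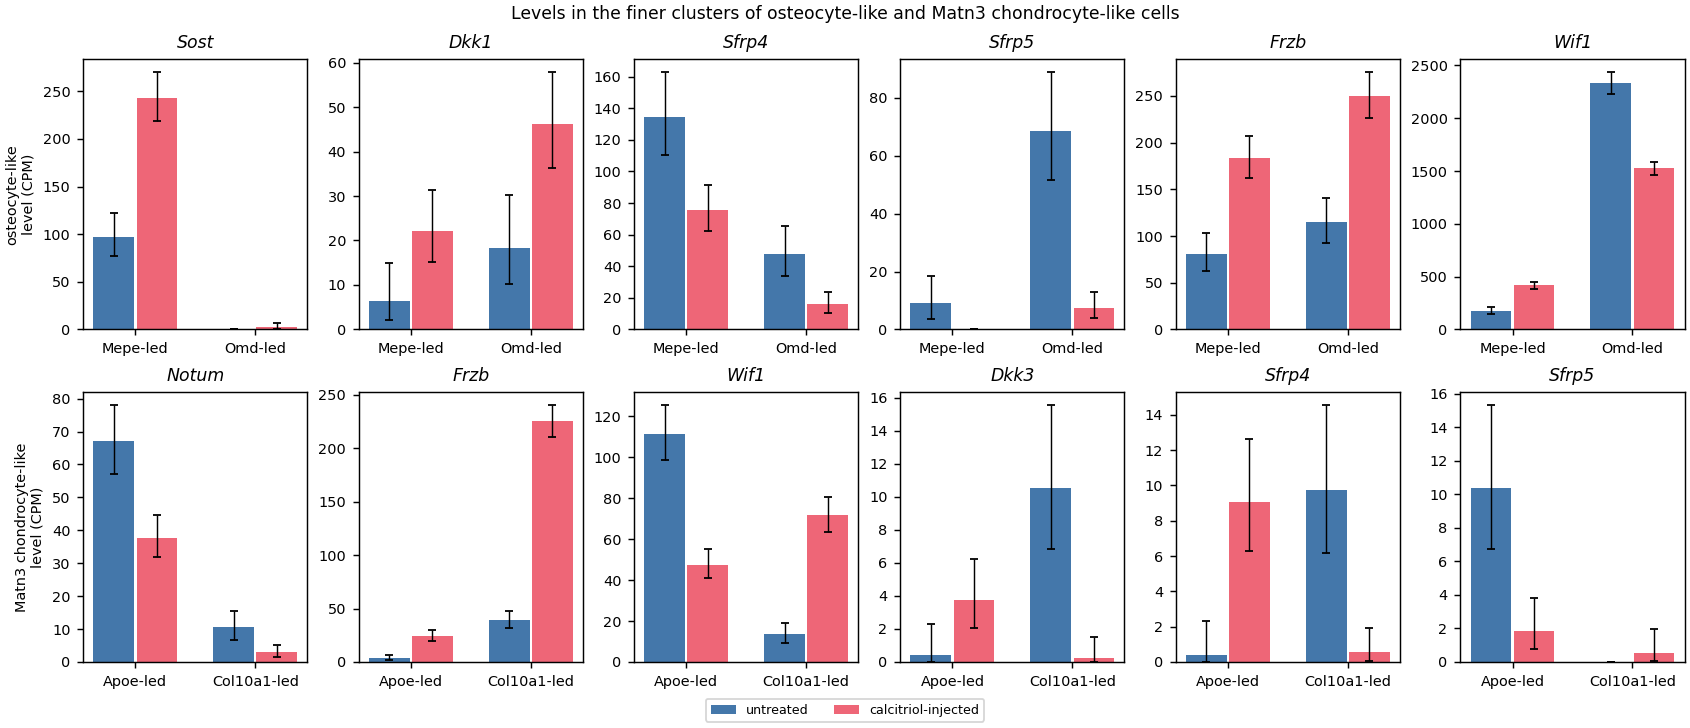
Level (y axis, CPM, scale differs by panel) of 6 antagonists in the *Mepe*-led and *Omd*-led clusters of osteocyte-like cells (top) and of 6 in the *Apoe*-led and *Col10a1*-led clusters of *Matn3* chondrocyte-like cells (bottom), untreated in blue and calcitriol in red, with exact 95% Poisson intervals except at 0. *Sost* stood at 97.5 and 243 CPM in *Mepe*-led cells against 0 and 4 UMIs in *Omd*-led cells, and *Frzb* at 39.3 and 225 CPM in *Col10a1*-led cells.

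*Wif1* (ENSMUSG00000020218, chromosome 10, 121033960 to 121100650, plus strand), Wnt inhibitory factor 1, was found in most cells of the *Cytl1*, osteocyte-like and *Chil1* chondrocyte-like groups. In the *Cytl1* group it was at 2660 CPM (2606 to 2716) and 1630 CPM (1604 to 1656), with a UMI in 88.8% and 87.2% of cells and a log2 ratio of -0.71 (-0.74 to -0.67). Osteocyte-like cells had 1279 and 1004 CPM, in 80.0% and 83.1% of cells. *Chil1* chondrocyte-like cells had 996 and 1037 CPM, in 86.4% and 85.8%. The latter groups were apart in the untreated library and overlapped in the calcitriol library (969 to 1040 and 1006 to 1069 CPM). *Kera* tendon-like cells followed with 445 and 530 CPM, and *Igfbp2* tendon-like cells with 182 and 171 CPM. *Matn3* chondrocyte-like cells, also cartilage-marked, had a *Wif1* UMI in 44 of 138 untreated and 60 of 232 calcitriol cells. Erythroid-like cells had a *Wif1* UMI in 0.780% and 0.693% of cells, endothelial-like cells in 1.12% and 2.93%.

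The largest ratio of any antagonist in the 10 skeletal groups was that of *Wif1* in *Bglap* osteoblast-like cells, the group led by the osteocalcin genes. It had 39 UMIs in 23 of 81 untreated cells and 603 UMIs in 62 of 96 calcitriol cells. The level was 20.5 CPM (14.6 to 28.1) and 275 CPM (254 to 298), a log2 ratio of 3.75 (3.28 to 4.25). The share of cells was 28.4% (18.9 to 39.5) and 64.6% (54.2 to 74.1), and 2.5% and 32.3% after thinning. No untreated cell had 10 or more UMIs and 18 calcitriol cells did, with highest cells at 6 and 54 UMIs. The ratio was 1.97 as a mean of the cells' own CPM and 4.51 after thinning. The untreated cell with 6 *Wif1* UMIs held 1506 UMIs in all (3984 CPM), so that thinning left it out. Its part in these values was not tested.

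**Figure D3:**
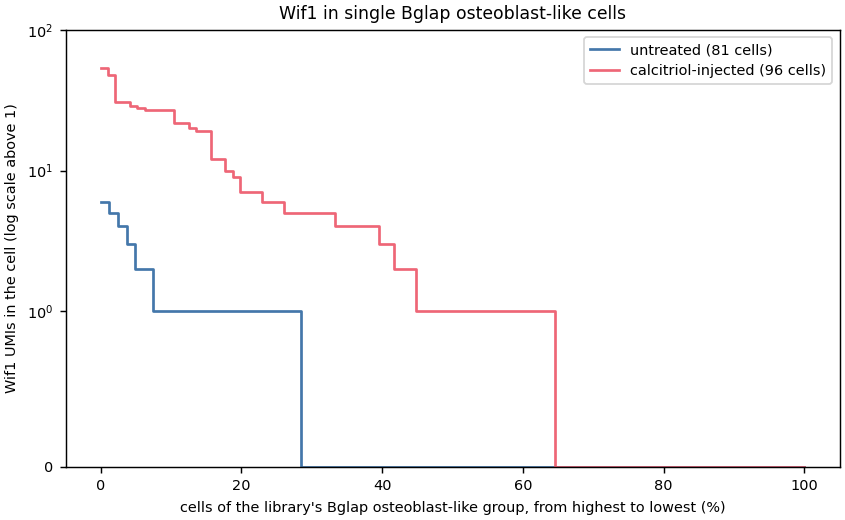
*Wif1* UMIs of each *Bglap* osteoblast-like cell (y axis, linear from 0 to 1 and logarithmic above), cells ordered from highest to lowest (x axis, % of the library's 81 untreated or 96 calcitriol cells). The calcitriol line (red) reaches 54 UMIs and leaves 0 at 64.6% of cells, the untreated line (blue) reaches 6 UMIs and leaves 0 at 28.4%.

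Other genes moved with *Wif1* in this group. *Bglap* itself was at 29198 and 9317 CPM, *Spp1* (osteopontin) at 27746 and 95105 CPM, *Mepe* at 2.11 and 225 CPM and *Cytl1* at 0 and 379 CPM. Of the whole lists, the osteoblast list (10 of 10 genes with a UMI in each library) summed to 112901 and 66090 CPM. The osteocyte list (8 and 9 of 9 genes) summed to 1361 and 2342 CPM, the chondrocyte list (10 of 10 in each) to 1161 and 848 CPM and the synovial lining list (5 and 6 of 6) to 257 and 974 CPM. In the 32 calcitriol cells with 5 or more *Wif1* UMIs, *Cytl1* was at 774 CPM and *Mepe* at 467 CPM. They were at 18.7 and 1.87 CPM in the 34 calcitriol cells with none. These levels came from part of the cells. *Cytl1* had a UMI in 12 of the 32 and 8 of the 34 cells, and *Mepe* in 6 and 1. In the same 32 and 34 cells the osteoblast genes *Ifitm5* (501 and 335 CPM) and *Bglap* (12283 and 8222 CPM) were higher in the former. *Ibsp*, of the same list, was lower there, at 10995 and 24159 CPM. *Dmp1* was at 1943 and 432 CPM and *Prg4* at 1461 and 183 CPM. The median cell held 27596 and 11418 UMIs. Without the cells that held a UMI of *Mepe* or *Cytl1*, a choice made after the values were seen, 79 untreated and 59 calcitriol cells remained. Their *Wif1* level was 18.3 and 261 CPM, a ratio of 3.84 (3.32 to 4.40).

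Within the osteocyte-like group *Wif1* had opposite directions in its finer clusters. It was at 2331 and 1526 CPM in *Omd*-led cells (-0.61, -0.70 to -0.52) and at 176 and 417 CPM in *Mepe*-led cells (1.25, 0.98 to 1.52). The same was seen by markers, with 2038 and 1333 CPM in cells with none of *Dmp1*, *Mepe* and *Phex* and 408 and 633 CPM in those with at least 2. *Wif1* was thus highest in the osteocyte-like cells with the least *Sost*. Taken over all groups, cells with at least 2 of the 3 markers gave a ratio of 1.03, against -0.35 (-0.43 to -0.27) in the osteocyte-like group as a whole. In *Matn3* chondrocyte-like cells, at 62.9 and 59.5 CPM, the *Apoe*-led cluster had 112 and 47.6 CPM (-1.23, -1.51 to -0.95), with 48.1% of the untreated UMIs in 1 cell. The *Col10a1*-led cluster had 13.5 and 71.6 CPM (2.41, 1.87 to 2.98), with 30.8% of the calcitriol UMIs in 1 cell.

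*Notum* (ENSMUSG00000042988, chromosome 11, 120653788 to 120661175, minus strand), the deacylase, was highest in *Chil1* chondrocyte-like cells. There it was at 183 CPM (163 to 206) and 132 CPM (121 to 144), in 60.2% and 52.9% of cells, a log2 ratio of -0.48 (-0.69 to -0.26). *Matn3* chondrocyte-like cells had 39.0 and 20.5 CPM (-0.93), mostly in the *Apoe*-led cluster (67.0 and 37.8 CPM), and the *Cytl1* group 29.4 and 21.0 CPM. These levels overlapped between the *Matn3* and *Cytl1* groups in both libraries. In the *Chil1* group 51 of 53 untreated and 112 of 119 calcitriol *Notum* cells also held *Wif1*. Most cells of the group did so too, 86.4% and 85.8% of them.

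The ratios of *Notum* past 2-fold were in groups where it was sparse. Mesenchymal-like cells had 73 UMIs in 17 cells and 17 UMIs in 11 cells, at 13.6 and 1.91 CPM (-2.83, -3.68 to -2.05). *Postn* osteoblast-like cells had 13 UMIs in 6 cells and 39 UMIs in 18 cells, at 2.78 and 9.05 CPM (1.70, 0.76 to 2.73). The top cell held 37.0% of the untreated UMIs in the former and 61.5% in the latter. Erythroid-like cells had *Notum* in 0.0867% and 0.231% of cells. *Notumos* and *Myadml2os* overlap *Notum* on the opposite strand.

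By cell group, the share of antagonists past 2-fold can be set beside that of all genes with at least 50 UMIs, of which 7.42% were past 2-fold in osteocyte-like cells. There 5 of 6 antagonists were past it, *Sost*, *Dkk1* and *Frzb* higher and *Sfrp4* and *Sfrp5* lower, and *Wif1* was not. Each of the higher ratios fell short of 2-fold in at least 1 alternative, with lowest values of 0.44, 0.95 and 0.67. This count is of the whole group, with its *Omd*-led cells. In the *Mepe*-led cells *Sost* (1.32), *Frzb* (1.19) and *Wif1* (1.25) were past 2-fold higher, and *Sfrp4* (-0.83) was not past it. *Dkk1* and *Sfrp5* had fewer than 50 UMIs there. In osteocyte-like cells with at least 2 of the 3 markers the *Frzb* ratio was 0.43 (-0.04 to 0.92). In *Bglap* osteoblast-like cells the count was 1 of 4 (*Wif1*, against 5.1% of all genes) and in *Postn* osteoblast-like cells 2 of 5 (*Notum* and *Dkk3*, against 6.33%). In *Matn3* chondrocyte-like cells it was 1 of 4 (*Frzb*, against 7.04%), in *Chil1* chondrocyte-like cells 0 of 5 (against 8.55%) and in the *Cytl1* group 1 of 6 (*Dkk3*, against 6.67%). In mesenchymal-like cells it was 2 of 6 (*Sfrp2* and *Notum*, against 5.99%). The tendon-like groups had 2 of 5 (*Kera*, *Dkk3* and *Sfrp2*, against 10.4%), 1 of 3 (*Chodl*, *Sfrp2*, against 8.02%) and 2 of 5 (*Igfbp2*, *Dkk3* and *Sfrp1*, against 8.45%). 

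**Figure D4:**
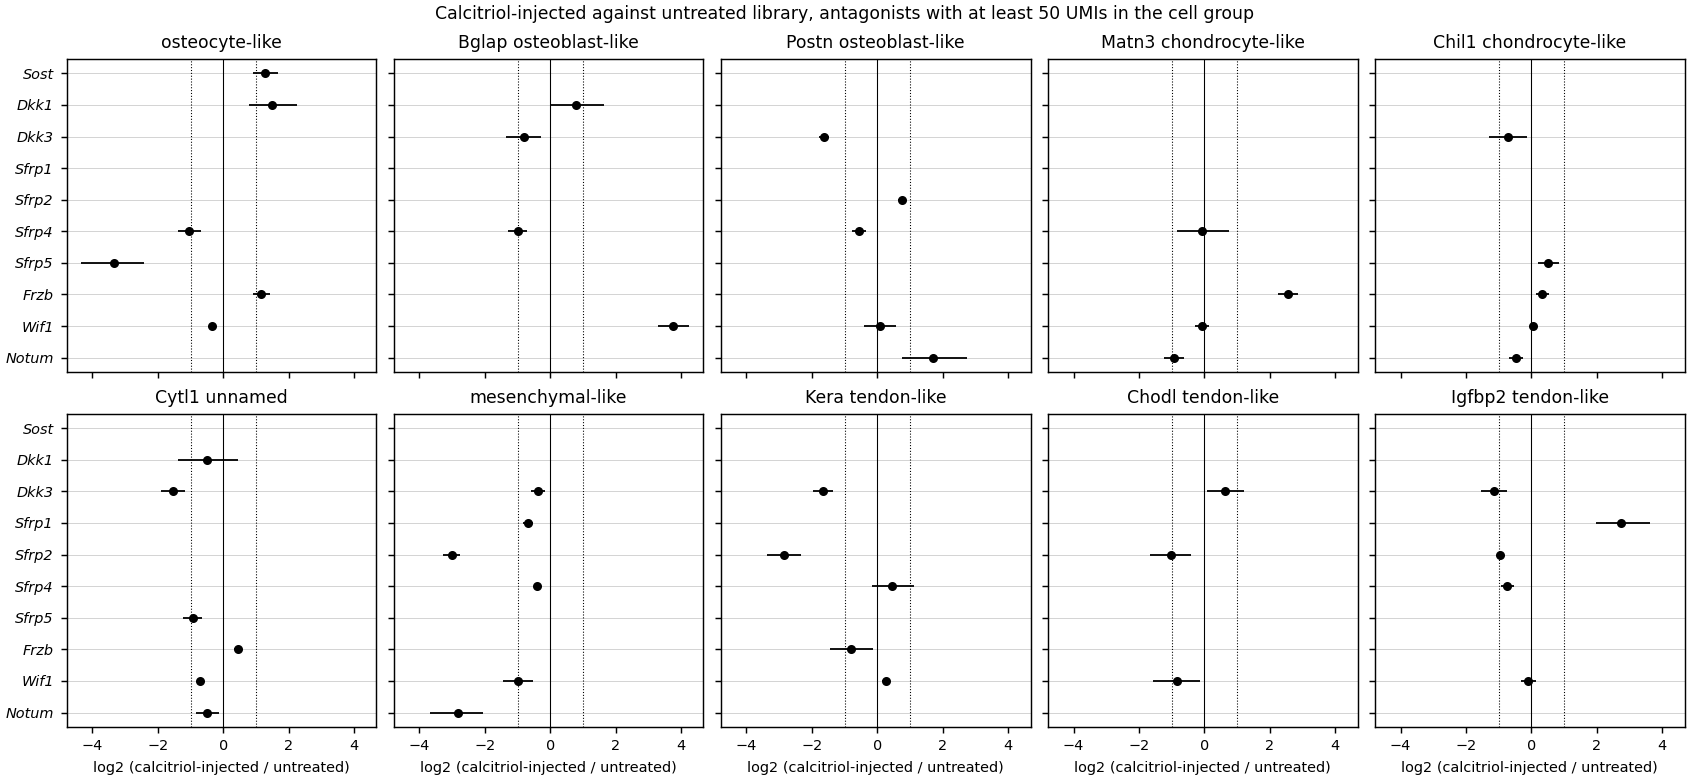
Log2 ratio of calcitriol to untreated CPM (x axis) of the antagonists (rows) with at least 50 UMIs in each of 10 skeletal groups (panels), 1 library per group; bars are exact 95% intervals and dotted lines mark 2-fold. In osteocyte-like cells 3 antagonists lie beyond the right line and 2 beyond the left, whereas no antagonist of *Chil1* chondrocyte-like cells lies beyond either.

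The rest of the Wnt pathway, in lists of ligands, receptors, R-spondins, targets, intracellular genes and other antagonists, had 39 of 329 gene and group pairs past 2-fold (11.9%). Beside this stand the shares of all genes in the same groups, from 5.1% (*Bglap* osteoblast-like) to 10.4% (*Kera* tendon-like). In osteocyte-like cells 1 of 7 ligands with at least 50 UMIs was higher (*Wnt1*, 5.64 and 14.4 CPM) and 1 lower (*Wnt7b*, 45.7 and 17.3 CPM, -1.40). Of 10 receptors *Fzd1* was higher (1.55), and of 4 target genes *Myc* (56.4 and 114 CPM, 1.01). Of 2 genes of the R-spondin list *Lgr4* was higher (1.33). The genes of each role with the highest CPM were not past 2-fold: the ligand *Wnt4* at 106 and 54.2 CPM, the receptor *Ryk* at 179 and 184 CPM, and *Tnfrsf11b*, which encodes the RANKL decoy osteoprotegerin and is a known target, at 1845 and 1949 CPM.

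In *Bglap* osteoblast-like cells, where *Wif1* was higher, *Tnfrsf11b* was at 147 and 351 CPM (1.25, 1.05 to 1.45) and *Tcf7l2*, a transcription factor of the pathway, at 37.9 and 129 CPM (1.76, 1.39 to 2.16). Of 9 receptors *Fzd7* was higher (8.95 and 20.1 CPM), and none of 4 ligands was past 2-fold. In *Postn* osteoblast-like cells 1 of 7 ligands was lower (*Wnt9a*, -1.22), and none of 12 receptors or 6 targets was past 2-fold.

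Mesenchymal-like cells, in which *Sfrp2* and *Notum* were lower, had 3 of 5 ligands lower. These were *Wnt10b* (15.6 and 6.84 CPM, -1.19), *Wnt5a* (15.4 and 7.07 CPM, -1.12) and *Wnt2* (40.7 and 19.5 CPM, -1.06). Of 8 target genes *Ccnd1* (111 and 42.7 CPM, -1.37, -1.56 to -1.19) and *Nkd1* (10.8 and 3.03 CPM, -1.83) were lower, while none of 13 receptors was past 2-fold. *Lrp6* was at 107 and 118 CPM.

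Among the cartilage-marked groups, *Matn3* chondrocyte-like cells had 1 of 5 ligands lower (*Wnt5b*, 36.7 and 16.2 CPM, -1.18) and *Trabd2b*, a protease that inactivates Wnt proteins, at 35.4 and 11.2 CPM (-1.66, -2.05 to -1.27). *Wnt4*, the highest ligand there, was at 179 and 146 CPM. Of 9 receptors *Ror1* was higher (1.10), and of 5 genes of the R-spondin list *Rspo4* was lower (-1.09). *Chil1* chondrocyte-like cells, in which no antagonist was past 2-fold, had 2 of 12 receptors higher, *Fzd1* (17.7 and 50.7 CPM, 1.52) and *Ror1* (1.02). *Ror1* was past 2-fold higher also in the *Cytl1* group (1.07) and in *Kera* tendon-like cells (1.74).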

How the data were processed

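Single-cell 3-prime RNA libraries of femoral cells were analysed, 1 untreated and 1 calcitriol-injected, each a pool of 6 mice. Per the labels and the study's methods, the authors mapped reads to mm10 with Cell Ranger 4.0.0 and used Seurat 3.2.2, and the deposited values are UMI counts per gene and barcode, not normalized. A barcode needed at least 200 genes to be kept. Clusters past all 3 of the study's limits (mitochondrial share, genes, UMIs) were also left out. The libraries were then integrated by anchors and clustered (Seurat 5.3.0, R 4.3.3; 30 principal components, resolution 0.8), with the antagonists and other Wnt pathway genes removed from the 2000 variable genes. The finer clusters were those at resolution 1.2.

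A cluster was named when it had at least 3 markers of a type, detected in at least 10% of its cells, and more than of any other type, or where a type's markers led its genes. The osteocyte-like cluster tied with osteoblast-like in markers and was decided by its leading genes. This naming rule was chosen with the clusters already in view. The members and gene lists were chosen with earlier results of these data known. For the groups described, at most 3 Wnt genes past 2-fold are named in each direction per list and group. The highest ligand, receptor or target is given for some of these groups.

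UMIs were summed per library and group in Python 3.11.15 (pandas 2.3.3, scipy 1.17.1, numpy 2.4.6), with plots by matplotlib 3.10.9. A ratio was read when a gene had at least 50 UMIs over both libraries, and a count of 0 entered as a floor of 3 counts. Thinning drew 2000 UMIs per cell and left out shallower cells. Doublets were scored (153 untreated, 119 calcitriol, at an expected 0.8% per 1000 cells) and kept in the main values. Scripts were tested on simulated data. No test was run between groups of 1 library. The alternatives included other clusterings, no integration, a stricter filter, doublets left out, other totals, thinning and leaving out the top cell.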

Additional observations from a re-analysis of the deposited data

Results flagged for a closer look

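Of the 10 antagonists, 7 had a log2 ratio above 0 in one skeletal group and below 0 in another. Both ratios had at least 50 UMIs and intervals clear of 0, and in none was the difference itself tested. The share of all genes that meet this rule was not counted. The highest and lowest such ratios were 3.75 in *Bglap* osteoblast-like and -0.98 in mesenchymal-like cells for *Wif1*. They were 2.74 in *Igfbp2* tendon-like and -0.68 in mesenchymal-like cells for *Sfrp1*. For *Sfrp2* they were 0.75 in *Postn* osteoblast-like and -3.00 in mesenchymal-like cells, although the first was -0.02 without integration. For *Sfrp5* they were 0.52 in *Chil1* chondrocyte-like and -3.33 in osteocyte-like cells. For *Frzb* they were 2.55 in *Matn3* chondrocyte-like and -0.79 in *Kera* tendon-like cells. For *Dkk3* they were 0.63 in *Chodl* and -1.66 in *Kera* tendon-like cells, although the first was -0.18 with 20 principal components. *Notum* was the only one past 2-fold both ways, with 1.70 in *Postn* osteoblast-like cells and -2.83 in mesenchymal-like cells, from 52 and 90 UMIs over both libraries. By the same limits the finer clusters went opposite ways for *Wif1*. Within osteocyte-like cells its ratio was -0.61 in the *Omd*-led cluster and 1.25 in the *Mepe*-led cluster. Within *Matn3* chondrocyte-like cells it was -1.23 in the *Apoe*-led cluster and 2.41 in the *Col10a1*-led cluster. In mesenchymal-like cells 1 untreated cell held 73 *Wif1* UMIs and the next held 3. That ratio kept its sign in 10 of 12 alternatives and ran from -2.48 to 1.27. In *Kera* tendon-like cells 1 calcitriol cell held 32 *Frzb* UMIs and the next held 1. That ratio ran from -4.71 to -0.09 over the alternatives. Single cells held up to 61.5% of the *Notum* UMIs of a library and group and up to 48.1% of those of *Wif1* in the *Matn3* clusters. The part of single cells in these differences was not tested beyond leaving out the top cell.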

How the results depend on the processing

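Each group is 1 library, so the spread between animals is unknown, and depth limits the sparse antagonists (*Dkk1*, *Sost*, *Notum* outside cartilage). All 17 ratios past 2-fold had the same sign under every alternative that gave a value, and 13 were past 2-fold in each. This does not count the finer osteocyte-like clusters and the *Bglap* cells without *Mepe* or *Cytl1*, which were added after the data had been seen. Those that fell short in an alternative were *Sost*, *Dkk1* and *Frzb* in osteocyte-like cells and *Sfrp2* in *Chodl* tendon-like cells. Their weakest ratios were 0.44, 0.95, 0.67 and -0.12. Cells thinned to 2000 UMIs gave 6 past 2-fold among 21 pairs with 50 UMIs (6 of the 17 had 50, of which 5 stayed past 2-fold and *Sost* in osteocyte-like cells did not), and 41 in place of 74 shares of at least 10% of cells. Thinning gave ratios of 4.51 for *Wif1* in *Bglap* osteoblast-like, -1.42 for *Dkk3* in *Postn* osteoblast-like, -2.63 for *Sfrp2* in mesenchymal-like and 0.53 for *Sost* in osteocyte-like cells. The mean of the cells' own CPM gave 1.97, -2.72 and 0.44 for *Wif1*, *Sfrp2* and *Sost*. The stricter cluster filter gave 2.70 for *Wif1*, no integration 0.92 for *Sost*, and leaving out the top cell 3.01 for *Frzb* in *Matn3* chondrocyte-like and -2.66 for *Sfrp2*. In erythroid-like cells the *Wif1* ratio of -2.86 became 0.048 without integration, 0.36 without doublets and 0.34 as a mean over cells. The causes were not tested. The group with the highest level moved for *Frzb* to osteocyte-like cells (all variable genes, or 20 principal components), for *Sfrp2* to *Postn* osteoblast-like cells (no integration, or the stricter filter) and for *Dkk1* to *Bglap* osteoblast-like cells (thinning). The Wnt pathway count of 39 past 2-fold was 65 at 20 UMIs, 15 at 200 UMIs, 104 at 1.5-fold and 8 at 3-fold. Over all settings, 523 ratios stayed within their interval, 111 left it and 3 turned, the *Wif1* ratios of erythroid-like cells above. Only a ratio past 2-fold could count as turned. Some smaller ratios also changed sign and were counted among those that stayed or left. Examples are *Dkk3* in *Chodl* tendon-like cells (0.63 to -0.18) and *Sfrp4* in *Kera* tendon-like cells (0.46 to -1.14). No paired analysis was possible because each group has 1 library and no shared replicate numbers that pair animals.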

Other observations

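Outside the 10 skeletal groups, *Sfrp5* was found in Schwann-like cells. It had 31 UMIs in 10 of 16 untreated cells and 82 UMIs in 15 of 20 calcitriol cells, at 397 CPM (269 to 563) and 575 CPM (458 to 714). The log2 ratio was 0.54 (-0.08 to 1.18).

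Over the clusters with at least 30 cells, the genes whose log levels were most like each antagonist were listed as a description, over clusters of the same 2 libraries. For *Dkk1* they were *Mepe* (r = 0.97), *Ccdc194* (0.96) and *Dmp1* (0.95). For *Sost* they were *Il4i1* (0.99), *Pde11a* (0.97) and *Ctsw* (0.97). For *Notum* they were *Calml3* (0.93), *Lef1*, a transcription factor of the Wnt pathway (0.91), and *Gdf5*, a growth factor of joint cartilage (0.90). For *Dkk3* the first was *Thbs2* (0.92), for *Wif1* *Rbp4* (0.94), for *Sfrp1* *Fgf7* (0.93) and for *Frzb* *Zdhhc23* (0.97). For *Sfrp2* it was *Gm26771* (0.92), which overlaps it on the opposite strand. These values compare whole clusters and not cells within a cluster. Within the osteocyte-like group, 55.0% of untreated and 46.7% of calcitriol *Dkk1* UMIs lay in cells without a UMI of *Dmp1*, *Mepe* or *Phex*.

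In *Chil1* chondrocyte-like cells, *Sfrp5* and *Notum* were often found together. Of the cells with *Sfrp5*, 19 of 28 untreated and 44 of 60 calcitriol cells also held *Notum*, which 60.2% and 52.9% of all cells of the group held.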
